A study of Mus musculus with 8 samples.

Results

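The enteroendocrine cell is a rare hormone-releasing cell of the gut epithelium, and 32 genes of its secretory machinery and its regulators were followed here in intestinal epithelial cells (IECs) of mice with and without CD1d. The genes were taken by name from the table of counts per gene, and all 32 were among the 25239 genes listed. The list held 12 transcription factors and 20 other genes, called secretory genes below, although 3 of these code for a receptor (Gfra3), an ion channel (Trpa1) and an RNA-binding protein (Celf3). CD1d displays lipids to a class of T cell, the natural killer T cell, and the study asked how the epithelium changes where CD1d and these T cells are lacking. There were 4 CD1d-KO samples, from untreated mice with the genotype CD1d1/2 KO, and 4 WT samples from untreated C57BL/6Jax mice. Per the methods, these were young adult mice of both sexes, 4 of each genotype, with age and sex matched between the genotypes, and living EpCAM-positive cells negative for CD45, CD31 and Ter119 were sorted from crypts of the duodenum, 150000 cells per sample. Samples came from 2 experiments, and the labels do not say which sample belonged to which, so experiment and genotype could not be separated.

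Enteroendocrine cells make peptide hormones as larger precursors, which granins help to package into dense-core granules, which prohormone convertases and a carboxypeptidase cut to their active form, and which are released when the granule fuses with the cell membrane. The enterochromaffin type makes the amine serotonin instead of, or beside, a peptide. The cells arise from crypt progenitors that briefly express the transcription factor Neurog3. Factors such as Neurod1, Insm1, Pax4, Isl1 and Rfx6 then act in endocrine differentiation. Most of these genes are nearly silent in the absorptive, goblet, Paneth and stem cells that make up most of a sorted crypt sample.

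Each sample held 23610266 to 31629435 counts. Cd1d1, a targeted gene, had 0 to 7.15 normalised counts in the CD1d-KO samples and 61.1 to 91.1 in the WT samples. The epithelial gene Epcam had 52223 to 58699 normalised counts in the 8 samples. Counts of the Y-linked gene Ddx3y stood at 1722 in CD1d-KO 1 and 2053 in CD1d-KO 2 and at no more than 1.05 in the other samples, so the Y chromosome was present in 2 of the 4 CD1d-KO samples and in no WT sample. These counts go against the stated matching of sex for these samples, and a fit of the rest (CD1d-KO 3 and 4 with all WT samples) is given beside the whole. The summed normalised counts of 10 stomach genes ran from 669 to 1353 in CD1d-KO and from 2204 to 13856 in WT, and those of 10 leukocyte genes from 777 to 937 and from 984 to 1968. Of these, 6 of 10 stomach genes and 5 of 10 leukocyte genes were called lower in CD1d-KO by DESeq2, beside 367 of all 15446 genes tested. The part of leukocyte RNA in the results below was not tested. Of neurons and glia, which also express granins and several of these transcription factors, the defining genes Stmn2 and Sox10 had 0 counts in every sample, and the summed normalised counts of their list ran from 365 to 485 in CD1d-KO and from 276 to 485 in WT. Of the pancreas list, Ins1, Ins2 and Pnlip had 0 counts in every sample, and the sum of the list, from 94.2 to 234, was almost all Cela1 (90.3 to 232).

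The levels of the 32 genes spread widely, and Chgb, Ddc, Chga and Cpe stood far above the factors. By their WT means, Ptprn2, Scg2, Gch1, Pcsk1 and Cplx2 also lay above the highest factor. The remaining secretory genes lay among the factors. On the TPM scale, on which counts are divided by exon length and by the total of a sample, chromogranin B (Chgb) was first, at 383 ± 76.0 TPM in WT (mean ± SD, n = 4, as for all errors of levels below). The amine-making enzyme Ddc, at 163 ± 23.0 TPM, and chromogranin A (Chga), at 126 ± 24.2 TPM, followed. Next came carboxypeptidase E (Cpe) at 51.5 ± 11.95 TPM, Ptprn2 at 30.1 ± 7.07 TPM and Scg2 at 23.2 ± 8.94 TPM. Each step down to Ptprn2 exceeded the larger SD of the pair, and that from Ptprn2 to Scg2 did not. From Gch1 (13.8 TPM) through Pcsk1 (13.7 TPM) and Cplx2 (13.5 TPM) to Scg5 (5.62 TPM), each gene differed from the next in this order by less than the larger of their SDs. The highest factors were Isl1 at 11.6 ± 2.19, Neurod1 at 11.4 ± 2.56 and Insm1 at 10.99 ± 2.37 TPM, a group in which no order could be told. At the bottom were Lmx1a at 1.81 ± 0.505, Pcsk1n at 1.79 ± 0.758 and Runx1t1 at 0.829 ± 0.110 TPM.

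**Figure D1:**
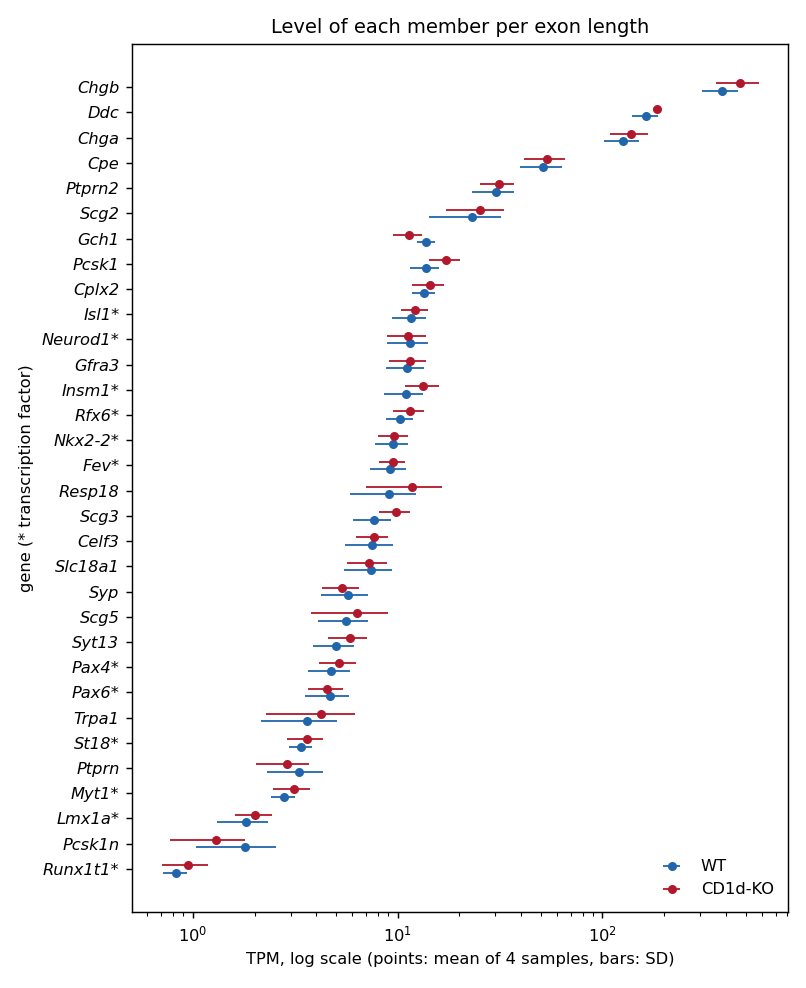
Mean level of each of the 32 genes in TPM on a log axis, with the SD of 4 samples, in WT (blue) and CD1d-KO (red); asterisks mark transcription factors. Chgb, Ddc and Chga lie above 100 TPM in both genotypes, the 12 factors between 0.829 and 13.3 TPM, and the points of the genotypes lie close together for every gene.

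All members together took 0.0846% to 0.136% of a sample's counts. Mean normalised counts ran from 40.9 for Pcsk1n to 12200 for Chgb, all 32 genes could be tested, and 31 had a mean of at least 50. The lowest single value was 15 counts, where counting error alone is 25.8%.

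Several of the genes shared a sequence just before their start sites, which the choice of members did not use. RefSeq promoter windows on the build GRCm38.p6 matched 23 of the 32 members by symbol. In the 250 bases before the start, the hexamer TGACGT, read on both strands, occurred in 8 of these 23 genes (34.8%), against 7.29% of the 27025 genes with a window. It is the core of the cAMP response element (CRE), to which CREB and ATF proteins bind, and such an element is known from granin promoters. The 8 genes were Chga, Chgb, Scg2, Scg5, Pcsk1, Celf3, Isl1 and Pax6, of which 2 are factors. In 5 of them, Chgb, Scg2, Pcsk1, Celf3 and Pax6, the hexamer on both strands overlapped to give the palindrome TGACGTCA, present in 1.77% of all genes. In Celf3 these matches lay only before start sites downstream of its first start site. A second motif, the E-box CAGATG, occurred in 2 of 23 members and in 16.3% of all genes, and the TATA box TATAAA in 3 of 23 and in 14.3%. The median GC content was 57.0% in the members' windows and 52.4% in all. These are matches of letters, not measured binding, and no binding was assayed. Shown next, because they carry the hexamer near the start in genes whose values follow, are the 150 bases before the start site of Chga (chr12:102554791-102554940, plus strand), Chgb (chr2:132781492-132781641, plus strand), Scg2 (chr1:79440027-79440176, minus strand), Pcsk1 (chr13:75089707-75089856, plus strand) and Pax6 (chr2:105668746-105668895, plus strand), written 5′ to 3′ with the hexamer in capitals:
Chga: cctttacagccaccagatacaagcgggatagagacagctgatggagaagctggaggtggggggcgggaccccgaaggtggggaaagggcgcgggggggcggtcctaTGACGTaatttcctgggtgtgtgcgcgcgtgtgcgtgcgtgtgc
Chgb: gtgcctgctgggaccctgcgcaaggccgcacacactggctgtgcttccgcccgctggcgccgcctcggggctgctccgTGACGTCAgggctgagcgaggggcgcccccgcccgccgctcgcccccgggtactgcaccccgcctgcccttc
Scg2: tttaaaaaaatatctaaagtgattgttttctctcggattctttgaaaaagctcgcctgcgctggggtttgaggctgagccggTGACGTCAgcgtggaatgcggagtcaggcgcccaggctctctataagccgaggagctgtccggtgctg
Pcsk1: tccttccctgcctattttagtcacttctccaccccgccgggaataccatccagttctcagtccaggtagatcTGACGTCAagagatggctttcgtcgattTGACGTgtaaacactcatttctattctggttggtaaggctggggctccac
Pax6: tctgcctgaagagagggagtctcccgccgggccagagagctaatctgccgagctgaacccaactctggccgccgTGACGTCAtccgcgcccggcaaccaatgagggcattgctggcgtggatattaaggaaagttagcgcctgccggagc

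In the 5 sequences the first capital stood 44 bases before the start in Chga, 72 in Chgb, 68 in Scg2, 78 in Pcsk1 and 76 in Pax6. Pcsk1 had a further hexamer downstream of its palindrome.

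Between the genotypes, none of the 32 genes was called higher or lower. With DESeq2's Wald test on all 8 samples and Benjamini-Hochberg adjustment over 15446 genes, 0 members had an adjusted p under 0.05, beside 4.03% of all genes tested. At an unadjusted p under 0.05 there were 3, of which Pcsk1 and Scg3 were higher and Gch1 lower in CD1d-KO, beside 15.3% of all genes. The quasi-likelihood test of edgeR also called 0, and gave 1 member, Pcsk1, at an unadjusted p under 0.05 beside 16% of all genes. No member had normalised counts that kept the genotypes apart, against 9.61% of all genes. The log2 fold change (CD1d-KO against WT) was positive for 25 of the 32 (78.1%), beside 50.3% of all genes, with a median of 0.11 beside 0.00. This held alike for the factors (10 of 12 positive, median 0.11) and for the secretory genes (15 of 20, median 0.11). The genes behind these counts are not independent, as the members rose and fell together by sample. The 95% interval of the log2 fold change stayed between -1 and 1 for 29 of the 32, so for these a doubling or halving lay outside the interval. In whole-sample RNA, fewer cells of a type and less RNA per cell cannot be told apart.

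**Figure D2:**
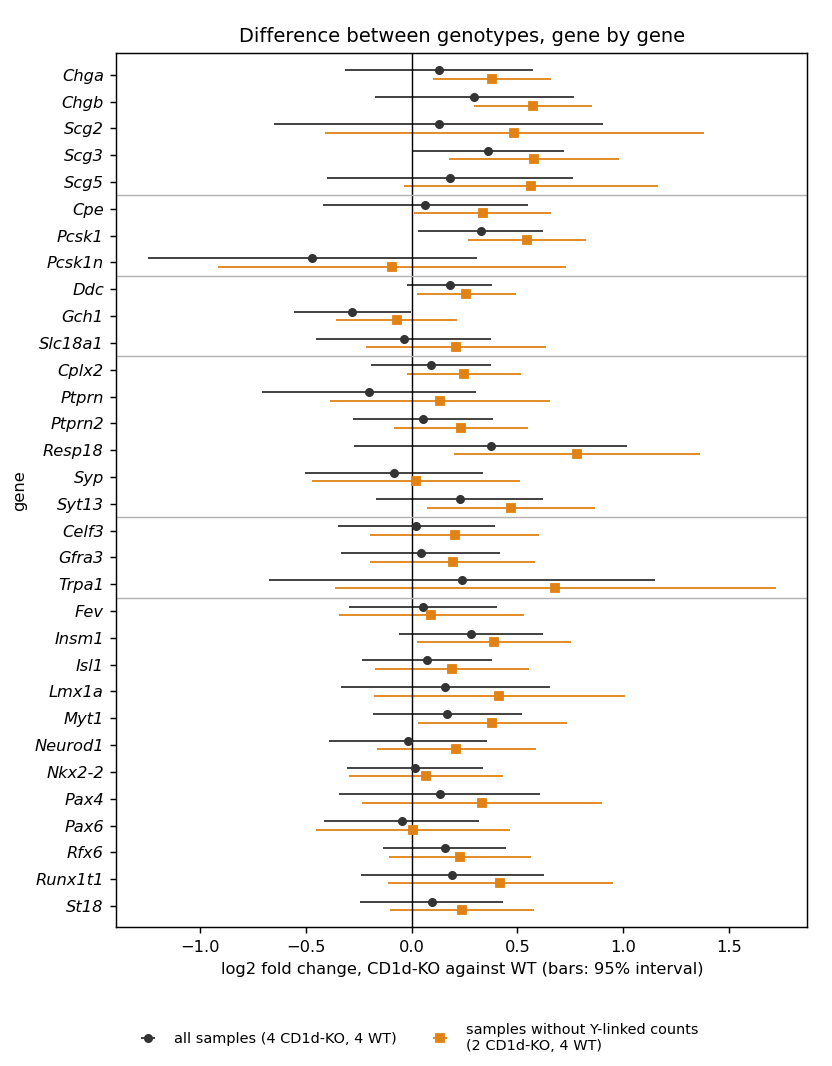
Log2 fold change of each gene, CD1d-KO against WT, with its 95% interval, in all 8 samples (black circles) and in the 6 samples without Y-linked counts (orange squares); grey lines divide the role groups. In all samples the intervals of every gene but Scg3, Pcsk1 and Gch1 cross 0, and the orange squares lie to the right of the black circles for every gene.

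All 5 granins had log2 fold changes above 0 (median 0.18), and 0 were called. Chgb, an acidic protein of the granule core, had 11987, 9253, 17393 and 15173 normalised counts in CD1d-KO 1 to 4, against 9535, 11231, 13961 and 9070 in WT 1 to 4. CD1d-KO 3 and 4 stood above every WT sample and CD1d-KO 2 below 3 of them, and the log2 fold change was 0.30 ± 0.24 (SE, adjusted p = 0.633 by DESeq2). Scg3, which tethers granins to the granule membrane, had 219, 218, 328 and 277 normalised counts in CD1d-KO, against 190.5, 201, 261 and 158 in WT. Only WT 3 lay above any CD1d-KO sample, and the log2 fold change was 0.36 ± 0.18 (adjusted p = 0.322 by DESeq2). Chga, the usual stain for these cells, had 2948, 2212, 3834 and 3707 normalised counts in CD1d-KO, against 2346, 3140, 3594 and 2534 in WT. The groups overlapped through most of their range, at a log2 fold change of 0.13 ± 0.23. Scg5, a chaperone of the convertase PC2, had 71.5, 60.0, 95.8 and 149.8 normalised counts in CD1d-KO, against 60.9, 92.2, 111.5 and 67.2 in WT. Its high CD1d-KO mean of 94.3 ± 39.9 came from CD1d-KO 4. Scg2, a secretogranin precursor, ran from 501 to 1074 in CD1d-KO and from 385 to 1000 in WT.

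The genes of prohormone processing did not go one way. Pcsk1, the convertase PC1/3 that cleaves most gut prohormones, had 942, 798, 1204 and 1207 normalised counts in CD1d-KO, against 749, 866, 1005 and 687 in WT. CD1d-KO 3 and 4 lay above all WT samples and CD1d-KO 1 above 3 of the 4, with a log2 fold change of 0.33 ± 0.15 (adjusted p = 0.252 by DESeq2). Pcsk1n, which codes for proSAAS, an inhibitor of that convertase, had 33.97, 14.3, 45.9 and 43.2 normalised counts in CD1d-KO, against 37.3, 72.3, 54.3 and 25.7 in WT. The log2 fold change was -0.47 ± 0.40, the most negative of the 32, but its interval ran from -1.24 to 0.31, and its exons overlap those of Eras, so that shared reads were not counted. Cpe, which trims the cut ends, had 1206, 1024, 1601 and 1779 normalised counts in CD1d-KO, against 1144, 1434, 1744 and 1039 in WT. Both groups covered nearly the same range, with a log2 fold change of 0.07 ± 0.25.

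The 3 amine genes differed in sign, and none was called. Gch1, which makes the tetrahydrobiopterin needed by tryptophan hydroxylase, had 335, 308, 470.2 and 406 normalised counts in CD1d-KO, against 398, 462, 510.0 and 473 in WT. CD1d-KO 1 and 2 lay below every WT sample and CD1d-KO 3 and 4 inside the WT range, and the log2 fold change was -0.28 ± 0.14 (adjusted p = 0.326 by DESeq2). Ddc, the decarboxylase that completes serotonin, had 4297, 4453, 4963 and 4818 normalised counts in CD1d-KO, against 3369, 4114, 4825 and 4056 in WT. All CD1d-KO samples exceeded WT 1, 2 and 4, while WT 3 lay among them, and the log2 fold change was 0.18 ± 0.10 (adjusted p = 0.413 by DESeq2). Absorptive cells are also known to express Ddc. Slc18a1, the transporter VMAT1 that loads amines into granules, had 257, 189, 303 and 344 normalised counts in CD1d-KO, against 235, 323, 361 and 200.5 in WT, at a log2 fold change of -0.04 ± 0.21.

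Among 6 genes of vesicles and the granule membrane, 4 log2 fold changes were above 0 and 2 below. Resp18, a granule protein of endocrine cells, had 97.5, 46.7, 145 and 138 normalised counts in CD1d-KO, against 67.7, 70.2, 126 and 64.8 in WT. The spread within each genotype was wider than the gap between them, at a log2 fold change of 0.37 ± 0.33. Syt13, a synaptotagmin, had 253, 179, 324 and 301 normalised counts in CD1d-KO, against 201, 220.1, 299 and 182 in WT. Again CD1d-KO 3 and 4 were above all WT samples and CD1d-KO 2 below them all, with a log2 fold change of 0.23 ± 0.20. Ptprn, the granule phosphatase-like protein IA-2, had 100.1, 90.5, 149.6 and 175 normalised counts in CD1d-KO, against 111, 175, 197 and 108 in WT, at a log2 fold change of -0.20 ± 0.26. Its relative Ptprn2, the fusion regulator Cplx2 and the vesicle protein Syp had log2 fold changes of 0.05, 0.09 and -0.09, with SE of 0.17, 0.14 and 0.21, and over all samples and these 3 genes the normalised counts ran from 118 (Syp in CD1d-KO 2) to 2271 (Ptprn2 in WT 3).

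Trpa1, a channel by which enterochromaffin cells sense irritants, varied more among the WT samples than any other member. It had 146, 135, 230 and 361 normalised counts in CD1d-KO, against 81.5, 202, 261 and 194 in WT, so that the highest WT sample had 3.20 times the lowest. The log2 fold change of 0.24 ± 0.47 had an interval from -0.67 to 1.15, too wide to set a limit near 0. Gfra3, a co-receptor of the GDNF family, had 304, 188, 326 and 287 normalised counts in CD1d-KO, against 240.5, 281, 342 and 208 in WT. Celf3, a regulator of splicing, had 383, 283, 412 and 458 in CD1d-KO, against 336, 384, 515 and 276 in WT. Their log2 fold changes were 0.04 ± 0.19 and 0.02 ± 0.19.

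The 12 transcription factors had small differences, from -0.05 for Pax6 to 0.28 for Insm1 on the log2 scale, and 0 were called or reached an unadjusted p under 0.05 by either test. Insm1, a zinc-finger repressor needed for endocrine differentiation, had 539, 358, 474 and 572 normalised counts in CD1d-KO, against 362, 424, 508 and 303 in WT. CD1d-KO 1 and 4 exceeded all WT samples, and the log2 fold change was 0.28 ± 0.17 (adjusted p = 0.474 by DESeq2). Rfx6, which maintains hormone-producing cells, had 553, 419, 457 and 618 normalised counts in CD1d-KO, against 437, 481, 545 and 374 in WT, at a log2 fold change of 0.16 ± 0.15. Myt1, a zinc-finger factor of endocrine progenitors, had 242, 163, 279 and 277 normalised counts in CD1d-KO, against 201, 220.1, 251 and 181 in WT, at a log2 fold change of 0.17 ± 0.18. In both genes CD1d-KO 4 stood above the whole WT range, and CD1d-KO 2 below most or all of it. Neurod1, which drives the late steps of the lineage, had 326, 237, 372 and 423 normalised counts in CD1d-KO, against 316, 353, 445 and 259 in WT. Its means of 339.8 ± 79.1 and 343 ± 78.0 lay within 1 SD of each other, with a log2 fold change of -0.02 ± 0.19 and an interval from -0.39 to 0.36. The other 8 factors had log2 fold changes of -0.05 (Pax6, a factor of several hormone types), 0.02 (Nkx2-2), 0.05 (Fev, a serotonergic factor), 0.07 (Isl1), 0.09 (St18, a Myt1 relative), 0.13 (Pax4), 0.16 (Lmx1a, needed for enterochromaffin cells) and 0.19 (Runx1t1), with SE between 0.16 and 0.25. Their normalised counts ran from 54.0 (Pax4 in WT 1) to 451 (Isl1 in CD1d-KO 4). Exons of Nkx2-2 overlap its antisense gene and those of Pax6 overlap Elp4, and strand was not used in counting, so both values are uncertain to that extent.

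The larger pattern was between samples of 1 genotype, and it ran through factors and secretory genes together. The highest WT sample had a median of 1.66 times the counts of the lowest over the 32 genes, and the highest CD1d-KO sample 1.69 times. Within WT, replicate 3 was the highest of the 4 for 31 of the 32 members, where 25.2% of all genes tested had their highest WT value. The exception was Pcsk1n. Within CD1d-KO, replicate 2 was the lowest for 30 of the 32, beside 23.5% of all genes, the exceptions being Ddc, lowest in CD1d-KO 1, and Pax6, lowest in CD1d-KO 3. At the other ends, the highest CD1d-KO value was in replicate 4 for 17 members and in replicate 3 for 13, and the lowest WT value was in replicate 4 for 21 and in replicate 1 for 11. The split was alike in both classes, with WT 3 highest in 12 of 12 factors and 19 of 20 secretory genes and CD1d-KO 2 lowest in 11 of 12 and 19 of 20.

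**Figure D3:**
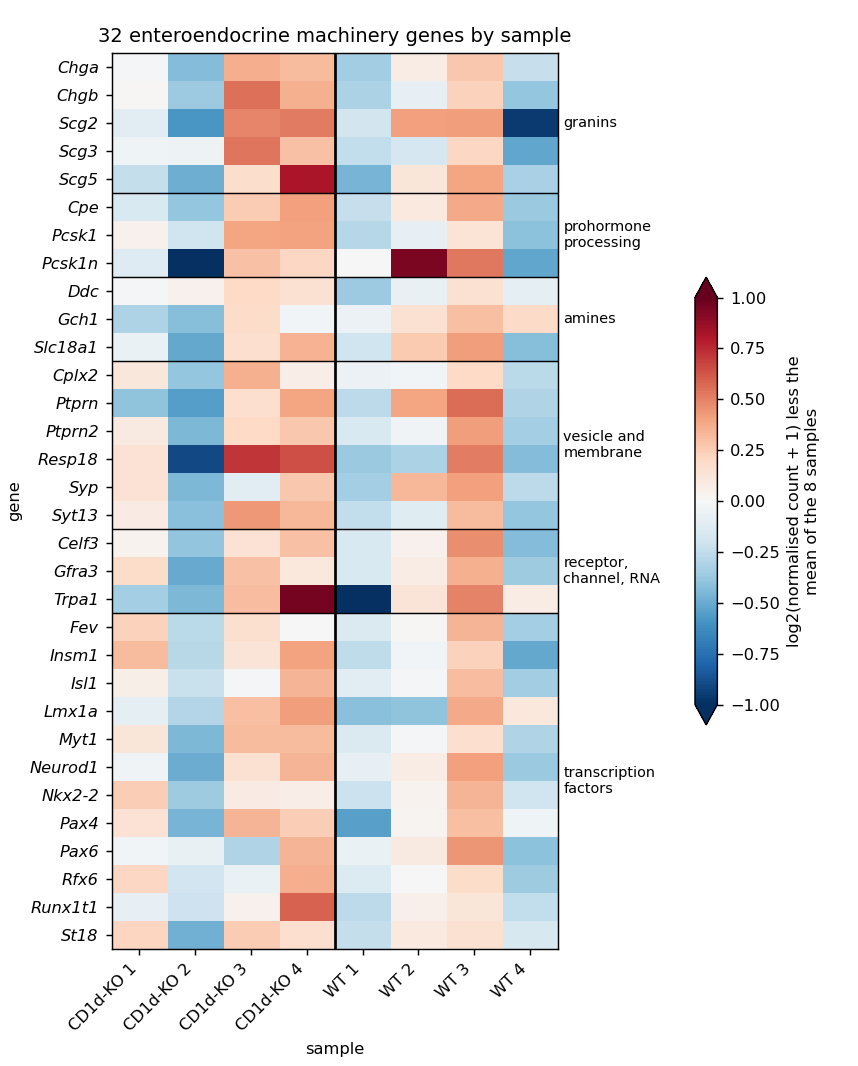
Level of each gene (rows, by role group) in each sample (columns), as log2(normalised count + 1) less the gene's mean over 8 samples; red is above and blue below that mean, and colours saturate at -1 and 1. CD1d-KO 2, WT 1 and WT 4 are blue, and CD1d-KO 3, CD1d-KO 4 and WT 3 red, down nearly the whole list.

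A mean score per sample, the mean over genes of these centred log2 values, put the same in figures. Over all 32 genes it was 0.01, -0.41, 0.24 and 0.33 in CD1d-KO 1 to 4, against -0.26, 0.06, 0.33 and -0.31 in WT 1 to 4. The lowest sample of all was a CD1d-KO and the highest of each genotype were level, so the groups overlapped over their whole range. The mean difference of 0.09 (0.04 ± 0.33 in CD1d-KO, -0.04 ± 0.30 in WT) was smaller than the SD within either group. For the factors the score was 0.11, -0.32, 0.12 and 0.30 in CD1d-KO, against -0.22, -0.01, 0.28 and -0.27 in WT, a difference of 0.10. For the secretory genes it was -0.05, -0.46, 0.31 and 0.36 in CD1d-KO, against -0.28, 0.11, 0.36 and -0.34 in WT, a difference of 0.08. The class scores therefore ranked the samples alike at their ends, and only CD1d-KO 1, at 0.11 for factors and -0.05 for secretory genes, changed its side of 0 along with WT 2. Leaving out 1 sample moved the difference over all genes to between -0.01 (without CD1d-KO 4) and 0.24 (without CD1d-KO 2), and without WT 4 it was -0.00226, so its sign rested on single samples. Within WT, the samples with the largest stomach sums, WT 3 (13856) and WT 4 (6943), were those with the highest and the lowest score. Within CD1d-KO, CD1d-KO 4 had the highest stomach sum (1353) and the highest score, and CD1d-KO 3 the lowest sum (669) with a score of 0.24. The part of stomach tissue in the scores was not tested.

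**Figure D4:**
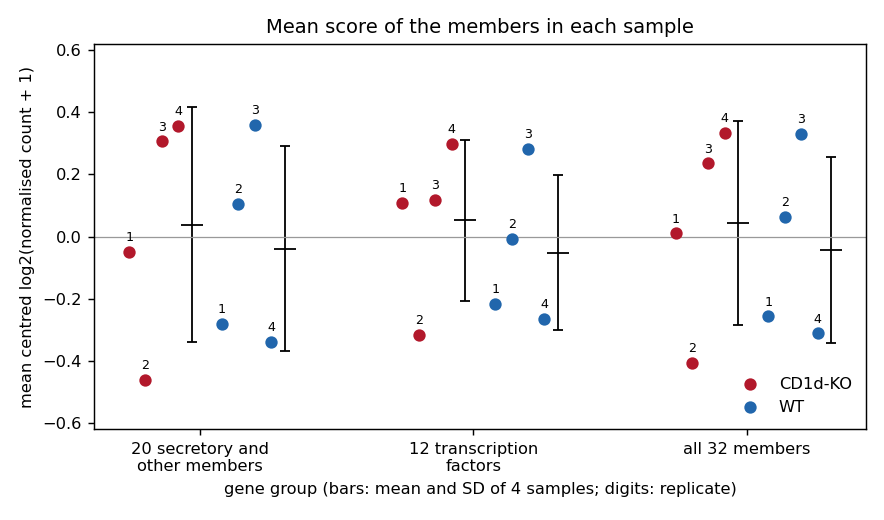
Mean centred log2(normalised count + 1) over the 20 secretory genes, the 12 transcription factors and all 32 members, for each CD1d-KO (red) and WT (blue) sample, with the replicate number; horizontal ticks and bars give the mean and SD of 4 samples. The genotypes overlap in each class, and CD1d-KO 2, WT 1 and WT 4 lie below 0 in all 3.

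In the samples without Y-linked counts the differences were larger. CD1d-KO 1 and 2, which had such counts, had the lower scores of their group. In the fit of CD1d-KO 3 and 4 against the 4 WT samples, 30 of the 32 log2 fold changes were positive. Of genes tested both here and with all samples, 7373 of 14470 were positive. The members' median was 0.25 (0.23 for factors, 0.30 for secretory genes) beside 0.00 over all genes. The difference of the mean score was 0.33 over all members, 0.26 for factors and 0.37 for secretory genes. In this fit Chgb rose, by a log2 fold change of 0.57 ± 0.14 (adjusted p = 0.00439 by DESeq2), and Pcsk1 by 0.54 ± 0.14 (adjusted p = 0.00933 by DESeq2). These 2 of 32 stand beside 1.22% of all genes called higher in the same fit. At an unadjusted p under 0.05, 10 members were higher, beside 4.93% of all genes, and 0 lower. The 10 were the 2 factors Insm1 and Myt1 and the 8 secretory genes Chga, Chgb, Scg3, Cpe, Pcsk1, Ddc, Resp18 and Syt13. Both CD1d-KO samples exceeded all 4 WT samples for 9 members (7 secretory genes and 2 factors), beside 10.5% of all genes. Members rose and fell together by sample, so these counts all reflect the high scores of CD1d-KO 3 and 4. The calls rest on 2 CD1d-KO samples and on the test. With edgeR on the same 6 samples 0 members were called (Chgb adjusted p = 0.132, Pcsk1 adjusted p = 0.108), beside 0.463% of all genes called higher, and 7 were higher at an unadjusted p under 0.05, beside 5.45% of all genes. A further fit over all 8 samples took the presence of Y-linked counts as a covariate. Only CD1d-KO 1 and 2 had such counts, so its genotype estimate again compared CD1d-KO 3 and 4 with WT. It is not a separate comparison. There Pcsk1 was called (0.54 ± 0.14, adjusted p = 0.00820 by DESeq2) and Chgb was not (0.57 ± 0.23, adjusted p = 0.181). Of all genes, 1.43% were called higher in it. As Y-linked counts were found in CD1d-KO samples alone, the part of sex in the scores of CD1d-KO 1 and 2 cannot be told apart from that of the mouse or the experiment.

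Each gene was further set against the rest of the list in the same sample, a measure chosen after the values were seen and given as a description. It used the same samples as the fits above and gives no separate support for their calls. The log2 level of Chgb less the mean of the other 31 members was 5.28, 5.32, 5.60 and 5.29 in CD1d-KO, against 5.21, 5.12, 5.17 and 5.19 in WT, higher by 0.20 in the mean. For Pcsk1 it was 1.49, 1.67, 1.62 and 1.52 in CD1d-KO, against 1.42, 1.31, 1.26 and 1.35 in WT, higher by 0.24. These were the only members of the 32 whose genotypes did not overlap on this scale, with CD1d-KO 1 and 2 also above every WT sample. The same measure kept 0.544% of all genes tested apart in this direction. That share is not a like background for the members, and how many members would stand apart by chance was not tested. Taking off the members' mean removes their shared variation, but adds it to genes that do not move with them. Gch1 had the reverse order, with -0.05, 0.26, 0.22 and -0.10 in CD1d-KO, against 0.48, 0.37, 0.25 and 0.80 in WT, and overlapped only through CD1d-KO 2 and WT 3. Scg3 was higher by 0.29 in the mean and overlapped. The genes with the palindrome before a start, Chgb, Pcsk1, Scg2, Celf3 and Pax6, had relative differences of 0.20, 0.24, 0.07, -0.05 and -0.12. Any link between the palindrome and these values was not tested.

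**Figure D5:**
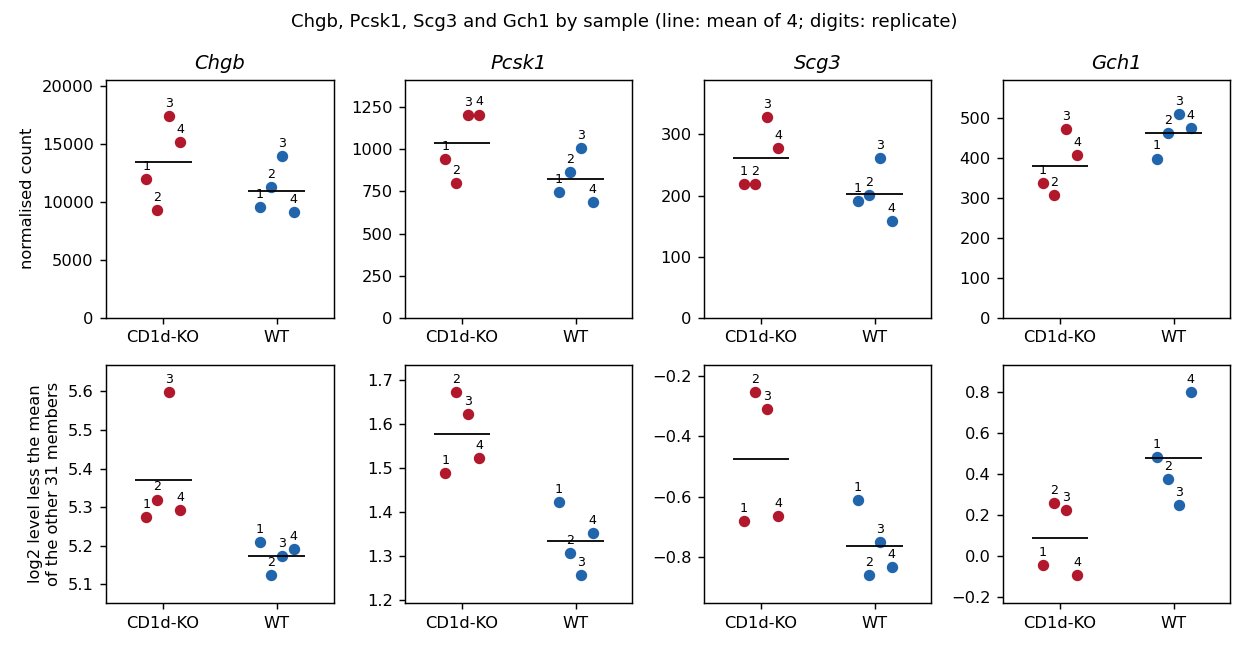
Normalised counts of Chgb, Pcsk1, Scg3 and Gch1 in each sample (top row, from 0) and their log2 level less the mean of the other 31 members in the same sample (bottom row, axis not from 0), for CD1d-KO (red) and WT (blue); lines give the mean of 4 samples and digits the replicate. In the top row every gene's genotypes overlap, and in the bottom row those of Chgb and Pcsk1 do not.

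The stomach genes differed between the genotypes, and a fit with their score as a covariate gave wider errors for every member but Trpa1. In that fit Trpa1 was called, with a log2 fold change of 1.69 ± 0.46 (adjusted p = 0.0361 by DESeq2), beside 0.309% of all genes called higher. Without the covariate it was 0.24 ± 0.47. The stomach score, a mean of centred log2 values, ran from -3.42 to 0.22 in CD1d-KO and from 1.05 to 4.26 in WT, so that it and genotype were largely confounded. Chgb and Pcsk1 had 0.70 ± 0.48 and 0.70 ± 0.27 there, neither called.

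Other genes of the same cells were not called either. Of 12 hormone genes, 0 were called by either test in all 8 samples, beside 4.03% of all genes by DESeq2. At that share few calls would be met in a list this short. By DESeq2 1, Insl5, reached an unadjusted p under 0.05, beside 15.3% of all genes. This gene fell under the count filter of edgeR and was not tested there. Its log2 fold change was 3.79 ± 1.25 (adjusted p = 0.0565 by DESeq2) and its genotypes did not overlap, but no sample had more than 11 raw counts. Of the hormones that edgeR tested, 0 reached an unadjusted p under 0.05, beside 16% of all genes. The median log2 fold change of the 12 hormones was 0.13, with 9 of 12 above 0, beside 50.3% of all genes. In the samples without Y-linked counts the hormones Nts (neurotensin, 1.33 ± 0.38, adjusted p = 0.0226 by DESeq2) and Iapp (amylin, 0.98 ± 0.29, adjusted p = 0.0359 by DESeq2) were higher, and with edgeR only Nts was (adjusted p = 0.0362). These calls rest on CD1d-KO 3 and 4. Of all genes in the same samples, 1.22% were called higher by DESeq2 and 0.463% by edgeR. Of 36 further genes of enteroendocrine secretion and fate, among them Neurog3, the exocytosis genes Snap25 and Stx1a and the nutrient receptor Ffar1, 35 could be tested by DESeq2, edgeR also left out Gpbar1, and 0 were called by either test. With 4.03% of all genes called by DESeq2, few calls would be met in this list too. At an unadjusted p under 0.05 there was 1 by each test, beside 15.3% of all genes by DESeq2 and 16% by edgeR. The median log2 fold change of these further genes was -0.02, and 16 of 35 were above 0. Neurog3, which marks the progenitors, had 426, 196, 504 and 376 normalised counts in CD1d-KO, against 275, 365, 358 and 273 in WT, at a log2 fold change of 0.24 ± 0.23. The mean score of these 36 genes, leaving out the 1 that could not be tested, was again lowest in CD1d-KO 2 (-0.32) and highest in WT 3 (0.33).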

How the data were processed

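The authors deposited raw counts of fragments per gene, with no normalization. Per the file headers, featureCounts 1.6.4 counted read pairs over exons of an mm10 gene annotation, with primary alignments only and strand not used, and the methods name HISAT2 on GRCm39. Coordinates here are those of the deposited table (mm10). The table had 0 further sample columns. Groups came from the labels. Counts were fitted with DESeq2 1.42.0 in R 4.3.3 (genotype only, median-of-ratios size factors, with genes under a mean of 2.41 normalised counts dropped by its independent filter), as the methods name it, and with edgeR 4.0.16 as an alternative. TPM were computed from counts and exon lengths. Scores used log2(normalised count + 1). Both fits were tested on simulated data. Members, lists and tests were chosen with earlier results of these data known, and 2 alternatives (a Y-linked covariate, and edgeR without Y-linked samples) after seeing the data. The lists are from general knowledge. Values in every sample are given for members called in any planned fit, the 3 with the largest Wald statistic in each role group, Chga and Neurod1, and the rest by range or fold change. Replicates of a genotype differed by more than sampling noise (chi-square per degree of freedom from 9.29 to 35.1). Per the methods, the samples came from 4 mice of each genotype. Errors of counts cover counting only, as reads had no molecular identifiers.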

Additional observations from a re-analysis of the deposited data

Results flagged for a closer look

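For 2 of the 70 sets of 4 values examined (each member and each mean score in each genotype), 1 sample stood far from the other 3, by a gap that took more of the whole range than Dixon's 95% value of 0.829. About 1 in 20 such sets is expected to do so by chance. Resp18 in WT had 126 normalised counts in WT 3 and 64.8 to 70.2 in the other samples, a gap of 0.911 of the range. WT 3 was the highest WT sample for 31 of the 32 members. St18 in CD1d-KO had 183 normalised counts in CD1d-KO 2 and 287 to 305 in the others, a gap of 0.853 of the range, and CD1d-KO 2 was the lowest of its group for 30 of the 32. Without CD1d-KO 2 the log2 fold change of St18 was 0.24, and without WT 3 that of Resp18 was 0.66, neither called.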

How the results depend on the processing

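No member was called with edgeR, TMM factors, a filter of 10 counts in 4 samples, no independent filtering, or any 1 sample left out. Replicate numbers did not pair the samples (correlations of deviations 0.30, -0.07, 0.25 and -0.08 for numbers 1 to 4, with 2 of 4 CD1d-KO samples closest to their own number), and the fit with a replicate block called 0 members, 0 hormones and 0 other machinery genes. Calls appeared in 4 fits, and the cause was not tested: without Y-linked samples, 2 members and 2 hormones (with edgeR 0 and 1); with a Y-linked covariate, 1 member and 2 hormones; with a stomach covariate, 1 member and 2 other machinery genes, Rab3c and Map1b. The mean score differences moved by less than 1 SD in each alternative.

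The sign of an uncalled log2 fold change was not fixed for 18 members. For 5 it turned positive without Y-linked samples, with edgeR there, with the Y-linked covariate and with the stomach covariate, in that order: Slc18a1 0.208, 0.202, 0.207 and 0.481, Syp 0.0208, 0.0155, 0.0198 and 0.436, Ptprn 0.134, 0.128, 0.133 and 0.496, Neurod1 0.211, 0.206, 0.210 and 0.512, and Pax6 0.00783, 0.00161, 0.00666 and 0.506. With 1 sample left out, values ran from -0.0917 to 0.308 (Scg2), -0.134 to 0.359 (Scg5), -0.0701 to 0.218 (Cpe), -0.167 to 0.109 (Slc18a1), -0.204 to 0.0489 (Syp), -0.0213 to 0.214 (Cplx2), -0.0464 to 0.224 (Ptprn2), -0.0602 to 0.189 (Gfra3), -0.118 to 0.452 (Trpa1), -0.101 to 0.208 (Celf3), -0.140 to 0.133 (Neurod1), -0.0347 to 0.202 (Isl1), -0.0102 to 0.282 (Pax4), -0.179 to 0.113 (Pax6), -0.0621 to 0.149 (Nkx2-2), -0.0409 to 0.194 (Fev) and -0.00818 to 0.288 (Runx1t1). Depth limited the lowest member, Pcsk1n, most.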
